A study of Mus musculus with 6 samples.

Results

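The Z-disc anchors the thin filaments and titin at the borders of the sarcomere, and 10 mouse genes of this structure, of its stretch sensing complex and of desmin were followed in HL-1, a line of mouse cardiomyocytes that grew out of an atrial tumour. They were Tcap, Csrp3, Myoz2, Ldb3, Actn2, Nebl, Xirp1, Ankrd1, Synpo2l and Des, and every probe set that the platform annotation gives to one of these symbols alone was taken, 19 of the 45037 on the array. Confluent cultures of the line, without other genetic or drug treatment named in the labels, were kept for 8 hours either in hypoxia at 1% oxygen or in normoxia at 21% oxygen, and 3 samples of each were measured on a one-colour Affymetrix array each. The comparison asks how the transcripts of these genes in cardiomyocytes respond to low oxygen. The labels do not say that the samples were separate cultures, so the p-values cover only the spread from sample to sample, and that spread may be technical. HL-1 is one tumour-derived line kept in culture, which limits it as a model of heart muscle.

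At the Z-disc, alpha-actinin crosslinks the thin filaments of neighbouring sarcomeres, and telethonin, the product of Tcap, ties together the ends of titin molecules. Muscle LIM protein, calsarcins, PDZ-LIM proteins and ankyrin repeat proteins attach to this lattice and are known to carry signals of mechanical load, while desmin filaments run between Z-discs and link them to the cell membrane and the nucleus. Mutations in several of these genes are known causes of cardiomyopathy.

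The labelled cell type was checked against lists of marker genes, whose summed signals are set between groups within a list and not between lists. All 9 markers of the atrial cardiomyocyte list lay above the filter on dim probe sets, which required a geometric mean signal over the 6 arrays above 14.1. Their summed signal was between 33066 and 35644 in hypoxia and between 34436 and 36075 in normoxia. That list also holds general cardiomyocyte genes, such as the troponin genes Tnnt2 and Tnni3, so its sum does not separate atrial from ventricular cells. Of 4 smooth muscle markers 3 lay above the filter. The summed signal of that list was 12106 to 15066 in hypoxia and 11312 to 13212 in normoxia. Mean signals in hypoxia and normoxia were 9450 and 8948 for Acta2, 4195 and 3241 for Tagln, and 366 and 257 for Cnn1. Myh11, the smooth muscle myosin, was in contrast at most 10.9 on any array. Above the filter were 3 of 4 ventricular, 3 of 7 skeletal muscle, 3 of 6 fibroblast, 1 of 5 endothelial and 3 of 4 leukocyte markers. Their summed signals in hypoxia and normoxia were 352 to 447 and 384 to 486 for the ventricular list, 505 to 651 and 486 to 601 for the skeletal list, 119.9 to 239 and 128 to 140.1 for the fibroblast list, 64.8 to 128 and 76.8 to 109 for the endothelial list, and 89.0 to 123 and 69.4 to 114 for the leukocyte list. Some defining markers were dim, with the skeletal muscle factor Myog, the leukocyte antigen Ptprc and the endothelial receptor Tie1 at most 10.6, 6.9 and 0.9 on any array. Others were not, since skeletal alpha-actin (Acta1) reached 562, the endothelial receptor Kdr 102.5 and the macrophage receptor Csf1r 70.3. Of the 25 markers above the filter in all 7 lists, 0 passed the test by limma and 7 (28%) had an unadjusted p under 0.05, against 12.4% of all genes. Of these, 5 had a positive log2 fold change, the atrial markers Nppa (0.76) and Sln (0.88), the smooth muscle markers Tagln (0.37) and Cnn1 (0.49) and the leukocyte marker Cd68 (1.14), and 2 a negative one, the cardiac troponin gene Tnni3 (-0.37) and the ventricular marker Myl3 (-0.80). Cd68 read 39.3, 49.2 and 43.4 in hypoxia and 25.3, 18.8 and 16.5 in normoxia. The part of other cells in the results below was not tested. On hypoxia array 3 and normoxia array 1, 69.4% of all genes tested lay on the same side of their group mean, and the results are given with and without those arrays further on. In RNA from whole cultures, fewer cells of a type and less RNA per cell cannot be told apart.

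Of the 10 genes, Tcap alone passed the test, and it was lower in hypoxia. The other 9 had log2 fold changes, hypoxia over normoxia, between -0.68 and 1.09, with adjusted p between 0.17 and 0.756. The test was limma on log2 signal with Benjamini-Hochberg adjustment over the 22518 probe sets above the filter, called at an adjusted p under 0.05. By this rule 0.608% of all probe sets were called, 0.533% higher and 0.0755% lower in hypoxia, and at gene level, with each gene read from its probe set of highest mean signal, 0.75% of 11332 genes were called, 0.662% of all genes higher and 0.0882% lower. Of the 19 probe sets of the 10 genes, 16 lay above the filter and were tested, and each gene kept at least 1. The 10 genes were chosen with earlier results of these arrays known, so their count is a description and not independent evidence. The median log2 fold change was 0.14 over the 10 genes and -0.04 over all genes, and the median absolute value was 0.61 against 0.20. With an unadjusted p under 0.05 there were 5 of the 10, Tcap, Csrp3, Actn2, Ankrd1 and Synpo2l, against 12.4% of all genes.

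**Figure D1:**
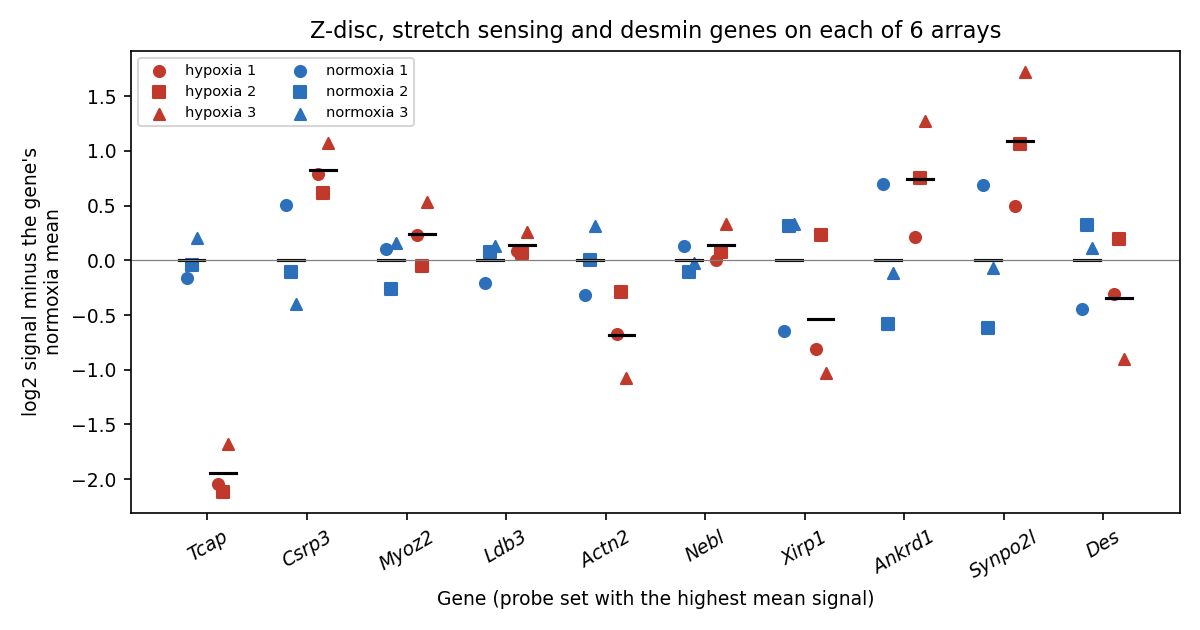
Signal of the 10 genes on each of the 6 arrays, as log2 signal minus the gene's normoxia mean (y axis), with 1 column per gene (x axis). Symbols are replicate numbers, red is hypoxia, blue is normoxia and black bars are group means of 3 arrays. Only Tcap and Csrp3 have groups that do not overlap.

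Tcap encodes telethonin, the titin cap. Its probe set, 1423145_a_at, read 60.0, 57.1 and 77.2 on hypoxia arrays 1, 2 and 3 and 221, 241 and 286 on normoxia arrays 1, 2 and 3. The highest hypoxia array thus lay well below the lowest normoxia array, and the highest array was 1.35 times the lowest in hypoxia and 1.29 times in normoxia. Group means were 64.8 ± 10.9 in hypoxia and 249 ± 33.3 in normoxia (SD over n = 3 arrays per group, also for later values). Tcap fell 3.86-fold (log2 fold change -1.95, SE 0.19, 95% confidence interval -2.37 to -1.53, adjusted p = 0.00154 by limma). Of the 11332 genes tested, 6 had a more negative log2 fold change. In each fit with 1 array left out the adjusted p stayed between 0.0016 and 0.0219. Its largest value over 20 alternatives was 0.043, for a variance model without a trend on mean signal. No other probe set on the array carries the symbol Tcap alone, so the fall rests on 1 probe set.

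Array signals of different probe sets cannot be ranked against each other, but their ratio on one array can be followed across arrays, free of any scaling of that array. Relative to each of the other 9 genes, log2 Tcap signal was lower in hypoxia by between 1.27 (against Actn2) and 3.04 (against Synpo2l). In all 9 pairs the 3 hypoxia arrays lay below the 3 normoxia arrays. Against Csrp3, the muscle LIM protein that binds telethonin, the log2 ratio differed by -2.77, hypoxia minus normoxia, and against Myoz2 by -2.18. Each of the 9 exact two-sided permutation tests gave p = 0.1 (adjusted 0.1 over the 9 pairs, n = 3 arrays per group), the smallest p that 3 against 3 allows, so this test cannot reach 0.05. The ratio of Tcap to a gene separated the groups for 96.2% of the other 11331 genes tested, and the 9 pairs share the Tcap values, so they restate the fall of Tcap.

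**Figure D2:**
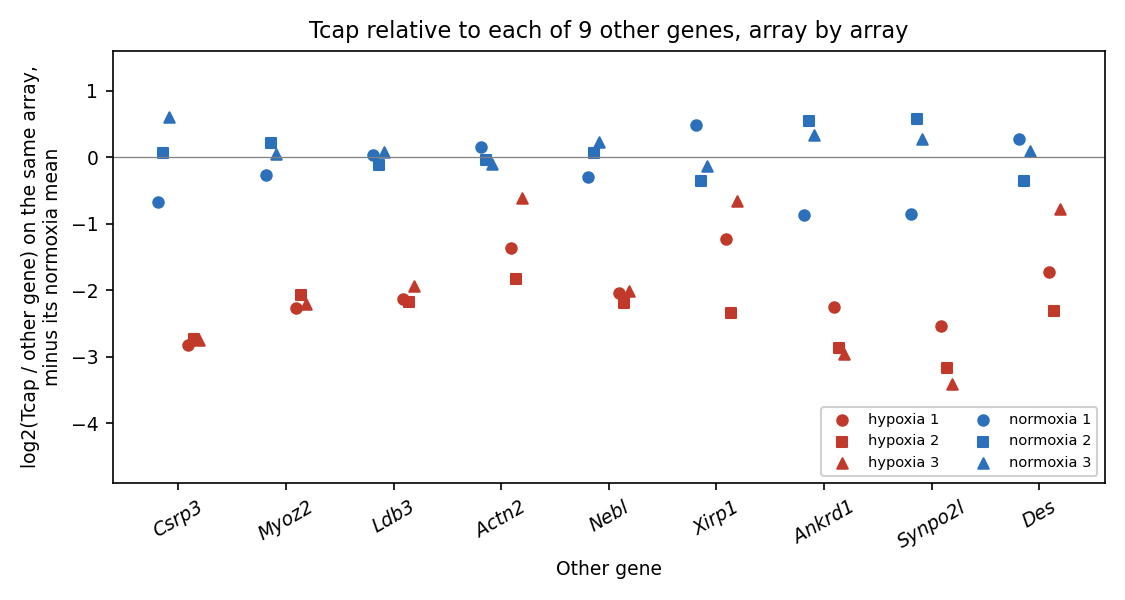
Ratio of Tcap to each of the other 9 genes on the same array, as log2 ratio minus its normoxia mean (y axis), with 1 column per gene (x axis), red for hypoxia and blue for normoxia. In all 9 columns the 3 red points lie below the 3 blue ones, and the mean gap runs from 1.27 for Actn2 to 3.04 for Synpo2l.

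The genes whose pattern over the 6 arrays lay closest to Tcap, by root mean square difference of log2 signal centred on the normoxia mean, were Rab15, a small GTPase (0.23), Septin4, a septin (0.38), and Arhgef3 (0.44). Rab15 read 9.4, 6.7 and 11.2 in hypoxia and 41.0, 29.1 and 37.2 in normoxia, and Septin4 22.8, 9.2 and 20.7 against 59.7, 70.8 and 61.9. Arhgef3 read 9.2, 8.5 and 14.8 in hypoxia and 25.7, 26.4 and 28.8 in normoxia. All 3 were dim. The geometric mean of Rab15 and Arhgef3 in hypoxia, 8.9 and 10.5, lay below the filter of 14.1, so both genes were tested only through their normoxia signal. One group lay below the filter in 4.02% of all genes tested and in 0 of the 16 tested probe sets of the 10 genes. As the 3 were picked for their likeness to Tcap, their log2 fold changes of -1.99, -1.97 and -1.36 are a description.

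Promoter windows of 300 bases, from 250 before to 50 after a RefSeq start site on GRCm38.p6, were at hand for 8 of the 10 genes, in 14 windows; the table used here had no entry for Tcap and Xirp1. The letters ACGTG or GCGTG on either strand, the core of the element bound by hypoxia-inducible factors, stood in windows of 3 genes, Ldb3, Actn2 and Nebl, which is 5 of the 14 windows (35.7%), and in 43.8% of all 32851 windows. The letters CTA and TAG with any 4 bases between them, a loose form of the site of MEF2 factors that is the same on both strands, stood in windows of 4 genes, Myoz2, Ldb3, Synpo2l and Des, 5 of the 14 windows (35.7%), and in 3.69% of all. The 2 windows of Ldb3 overlap and hold the same MEF2 match and the same GCGTG, so each of these letters counts in both windows. Differences between the shares of windows were not tested. CATTCC on either strand, the M-CAT element bound by TEAD factors, stood in windows of Nebl and Ankrd1, 2 of 14 (14.3%), and in 14.7% of all. E-boxes (CANNTG, the same on both strands) and GATA (either strand) each stood in 11 of the 14 windows (78.6%), from 7 of the 8 genes, against 72.3% and 57.9% of all windows. An E-box and the hypoxia core overlap in CACGTG. That stretch reads ACGTG on both strands, so it counts as 2 core matches, as in the window of Actn2 below. Motifs and examples were chosen after the values were seen. Windows of 4 genes are given with the hypoxia core, MEF2 and M-CAT letters in capitals. They are Actn2 (chr13:12340683-12340982, minus strand), which held 6 hypoxia core matches over both strands, Ankrd1 (chr19:36119795-36120094, minus strand) with 2 M-CAT matches, and Synpo2l (chr14:20668305-20668604, minus strand) and Des (chr1:75360042-75360341, plus strand) with 1 MEF2 match each. All are written 5′ to 3′ in the direction of the gene.
Actn2: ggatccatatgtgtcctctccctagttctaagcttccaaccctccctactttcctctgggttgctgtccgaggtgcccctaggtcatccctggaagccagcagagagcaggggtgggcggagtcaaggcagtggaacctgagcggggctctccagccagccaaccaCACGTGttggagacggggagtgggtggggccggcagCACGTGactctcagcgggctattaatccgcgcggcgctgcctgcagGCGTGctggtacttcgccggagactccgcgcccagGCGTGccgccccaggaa
Ankrd1: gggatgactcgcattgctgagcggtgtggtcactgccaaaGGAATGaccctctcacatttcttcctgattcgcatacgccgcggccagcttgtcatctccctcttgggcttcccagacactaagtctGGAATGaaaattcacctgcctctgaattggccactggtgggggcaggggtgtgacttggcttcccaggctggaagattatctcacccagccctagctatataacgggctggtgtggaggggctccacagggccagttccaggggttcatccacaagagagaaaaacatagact
Synpo2l: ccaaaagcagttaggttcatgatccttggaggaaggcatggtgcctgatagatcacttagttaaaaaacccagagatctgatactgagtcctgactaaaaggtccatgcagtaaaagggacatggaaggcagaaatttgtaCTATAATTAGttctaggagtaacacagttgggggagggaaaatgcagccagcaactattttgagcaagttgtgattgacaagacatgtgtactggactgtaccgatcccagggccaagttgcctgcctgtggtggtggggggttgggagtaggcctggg
Des: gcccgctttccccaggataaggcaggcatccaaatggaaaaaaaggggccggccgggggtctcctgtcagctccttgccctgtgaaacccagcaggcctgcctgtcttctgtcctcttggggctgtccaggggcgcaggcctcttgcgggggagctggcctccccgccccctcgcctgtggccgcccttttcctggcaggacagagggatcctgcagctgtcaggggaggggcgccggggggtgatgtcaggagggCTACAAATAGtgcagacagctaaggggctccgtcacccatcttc
A match is a description of letters and not a bound site, and no match says only that these letters are not in the window.

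**Figure D3:**
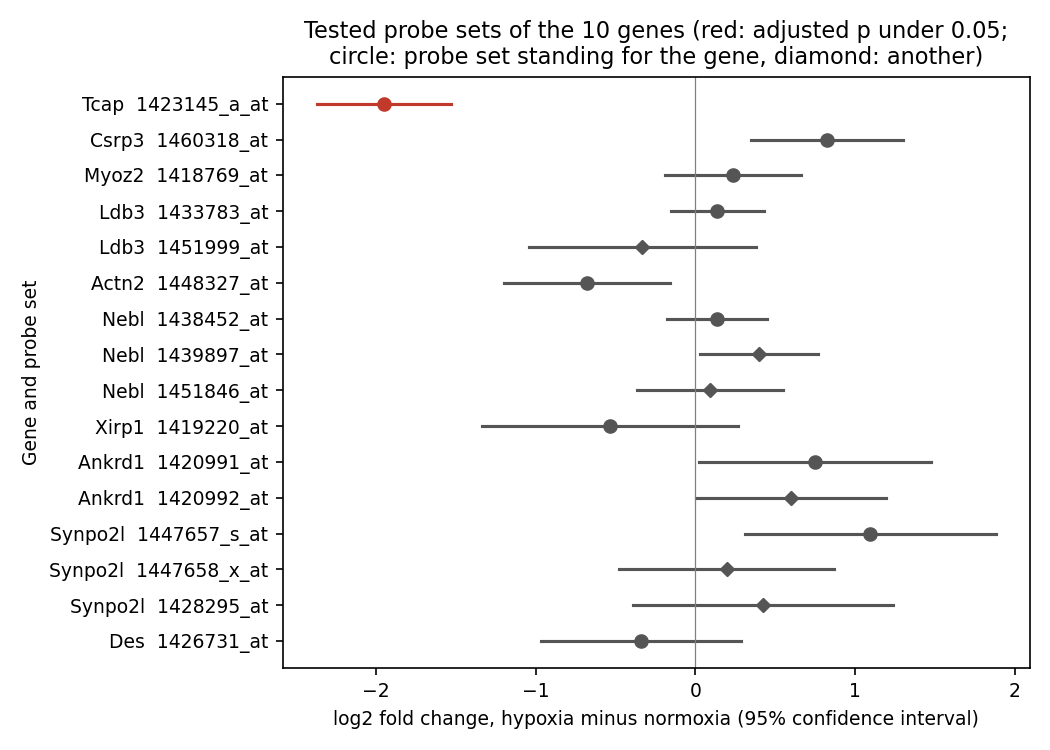
Log2 fold change, hypoxia minus normoxia (x axis), of the 16 tested probe sets of the 10 genes (y axis), with 95% confidence intervals from limma that are not adjusted for multiple tests. Circles are the probe sets that stand for a gene, diamonds its other probe sets. Only the Tcap interval, from -2.37 to -1.53 and drawn in red, belongs to a change that passed the test.

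Csrp3, Ankrd1 and Synpo2l had the largest positive differences of the 10, and 0 of the 3 passed. Csrp3 encodes muscle LIM protein, which sits at the Z-disc with telethonin and moves to the nucleus under load. It read 2308, 2049.5 and 2812 on hypoxia arrays 1 to 3 and 1899.9, 1247 and 1013 on normoxia arrays 1 to 3. The groups did not overlap, which held for 2 of the 10 genes and for 18.1% of all genes tested. Means were 2389.9 ± 388 and 1387 ± 460, a fold change of 1.77 (log2 fold change 0.82, SE 0.21, interval 0.35 to 1.30, adjusted p = 0.17). Normoxia array 1 lay nearest to the hypoxia arrays. Csrp3 passed without that array (log2 fold change 1.08, adjusted p = 0.016) and with array weights (adjusted p = 0.0255), and its adjusted p ran from 0.00446 to 0.528 over the 20 alternatives.

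Ankrd1 encodes CARP, an ankyrin repeat protein that binds titin and is known to be induced by stretch. Its brighter probe set, 1420991_at, read 1607, 2331 and 3352 on hypoxia arrays 1 to 3 and 2249.8, 925 and 1275 on normoxia arrays 1 to 3. The groups overlapped, since normoxia array 1 lay above hypoxia array 1 and near hypoxia array 2. The log2 fold change was 0.75 (SE 0.32, interval 0.02 to 1.47, adjusted p = 0.443). The other probe set, 1420992_at, read 1466, 1838 and 2738 against 1889.5, 994 and 1129.6, the same order of arrays within each group, with a log2 fold change of 0.60 with adjusted p = 0.454.

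Synpo2l encodes CHAP, an actin-associated protein of the Z-disc that binds alpha-actinin. The probe set standing for it, 1447657_s_at, read 664, 981 and 1553 in hypoxia and 757, 306 and 448 in normoxia, a fold change of 2.14 (log2 fold change 1.09, SE 0.35, interval 0.31 to 1.88, adjusted p = 0.28). Here too the groups overlapped only through normoxia array 1 and hypoxia array 1. The other tested probe sets gave smaller values. 1428295_at read 65.4, 177 and 93.6 in hypoxia and 59.0, 113 and 67.9 in normoxia, a log2 fold change of 0.42 with adjusted p = 0.711. 1447658_x_at read 131, 228 and 133 against 171, 172 and 89.5, a log2 fold change of 0.20 with adjusted p = 0.848. Without probe sets whose names end in s_at or x_at, which may bind other transcripts, Synpo2l is thus read from 1428295_at at 0.42, a value that was 0.029 without hypoxia array 2 and 0.75 without hypoxia array 1.

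Alpha-actinin itself and 2 of its partners on the lattice did not pass. Actn2, the sarcomeric alpha-actinin, read 156, 204 and 119 in hypoxia and 201, 249.6 and 311 in normoxia. The groups touched, with hypoxia array 2 just above normoxia array 1. Means were 159.8 ± 42.9 and 254 ± 55.2, and the log2 fold change was -0.68 (SE 0.23, interval -1.20 to -0.16, adjusted p = 0.322). Under the 20 alternatives its adjusted p stayed between 0.0924 and 0.73. Myoz2, calsarcin-1, which tethers the phosphatase calcineurin to alpha-actinin, read 297, 245 and 365 in hypoxia and 272, 211 and 282 in normoxia. Those values interleave, and the log2 fold change was 0.24 with an interval of -0.19 to 0.66 (adjusted p = 0.687).

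Ldb3 encodes Cypher (ZASP), a PDZ-LIM protein that binds alpha-actinin. Its brightest probe set, 1433783_at, read 898, 886 and 1012 in hypoxia and 735, 890.0 and 925 in normoxia, with a log2 fold change of 0.14 and an interval of -0.16 to 0.43, that is between 0.898-fold and 1.35-fold (adjusted p = 0.739). A second probe set, 1451999_at, read 108, 131 and 69.5 in hypoxia and 80.0, 176 and 139 in normoxia, with a log2 fold change of -0.33 with adjusted p = 0.74. The 2 probe sets thus had opposite signs, and their mean gave -0.10 (adjusted p = 0.878).

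Nebl encodes nebulette, which lines the thin filament near the Z-disc. Its probe set 1438452_at read 548, 575 and 690.2 in hypoxia and 599, 508 and 538 in normoxia, a log2 fold change of 0.14 (interval -0.18 to 0.45, adjusted p = 0.756). Probe set 1439897_at read 516, 486 and 674 in hypoxia and 467, 367 and 431 in normoxia. Its groups did not overlap, which held for 3 of the 16 tested probe sets of these genes and for 16.5% of all, and its log2 fold change was 0.40 (interval 0.03 to 0.77, adjusted p = 0.419). Probe set 1451846_at read 103, 106 and 155 in hypoxia and 115, 100.7 and 121 in normoxia, a log2 fold change of 0.09 with adjusted p = 0.907.

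Xirp1 and Des link the myofibrils to the membrane and to each other. Xirp1, the actin-binding Xin protein of the intercalated disc, read 91.5, 189 and 78.8 in hypoxia and 103, 199 and 203 in normoxia. Hypoxia array 2 lay among the normoxia arrays and normoxia array 1 among the hypoxia arrays, and the log2 fold change was -0.53 (SE 0.36, interval -1.34 to 0.27, adjusted p = 0.628). Des, desmin, read 349, 495 and 231 on probe set 1426731_at in hypoxia and 319, 542 and 469 in normoxia. Its groups overlapped more widely, with hypoxia arrays 1 and 2 among the normoxia arrays and normoxia arrays 1 and 3 among the hypoxia arrays. The log2 fold change of Des was -0.34 (SE 0.28, interval -0.97 to 0.29, adjusted p = 0.696). The value of Des was -0.059 without hypoxia array 3, -0.18 without normoxia array 2, -0.61 without hypoxia array 2 and -0.56 without normoxia array 1. Xirp1 had -0.29 without hypoxia array 3, -0.92 without hypoxia array 2 and -0.86 without normoxia array 1. For 5 of the 9 genes other than Tcap the interval included 0.

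A further 3 probe sets lay below the filter. Ldb3 1416752_at read between 1.2 and 19.8, Synpo2l 1458691_at between 3.0 and 24.8 and Des 1426732_at between 0.5 and 21.2 over the 6 arrays. Fitted without a filter, 0 of these 3 passed (adjusted p between 0.65 and 0.95, unadjusted p = 0.0635, 0.691 and 0.534).

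Within groups, several of the 10 genes shared an order of arrays, and many genes of the whole array did so too. Csrp3, Ankrd1, Synpo2l and Nebl were highest on array 3 of the hypoxia group and on array 1 of the normoxia group, while Actn2, Xirp1 and Des were lowest on both. On hypoxia array 3, log2 signal stood above the hypoxia mean by 0.63 for Synpo2l and 0.53 for Ankrd1, and stood at -0.56 for Des and -0.49 for Xirp1. On normoxia array 1 the deviations from the normoxia mean were 0.69 for Synpo2l, 0.70 for Ankrd1, -0.44 for Des and -0.65 for Xirp1. In all, 8 of the 10 genes lay on the same side of their group mean on both arrays, 5 above and 3 below, and 2, Tcap and Ldb3, did not. Over all genes tested that share was 69.4%. Of the 16 tested probe sets, 10 were highest on both arrays or lowest on both, against 42.3% of all probe sets. The median SD of log2 signal over all tested probe sets was 0.25 in hypoxia and 0.24 in normoxia. Ankrd1 had 0.53 and 0.65, Synpo2l 0.61 and 0.66, Xirp1 0.67 and 0.56 and Des 0.55 and 0.40, whereas Tcap had 0.23 and 0.19 and Ldb3 0.11 and 0.18.

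**Figure D4:**
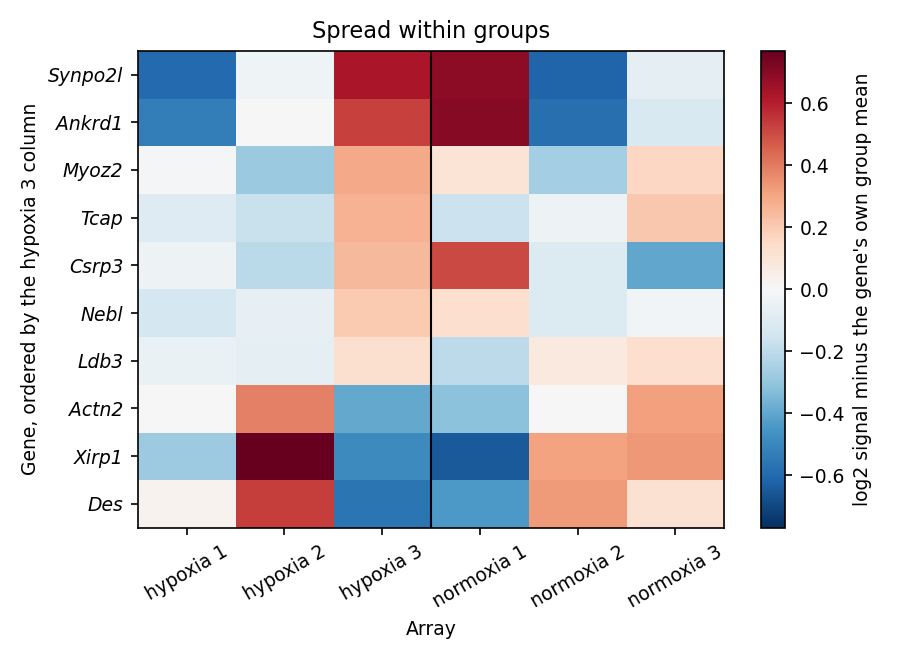
Spread within groups: log2 signal minus the mean of the gene's own group (colour, red above and blue below) for the 10 genes (rows, ordered by hypoxia array 3) on the 6 arrays (columns). Hypoxia array 3 and normoxia array 1 share a side for 8 of the 10 genes, against 69.4% of all genes tested. Both arrays are red for Synpo2l and Ankrd1 and blue for Des and Xirp1.

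With both of these arrays left out, an alternative chosen after the values were seen, 4 of the 10 genes passed, Tcap (adjusted p = 0.000205), Csrp3 (0.00446), Synpo2l (0.0232) and Ankrd1 (0.0491), with log2 fold changes of -2.16, 0.95, 1.12 and 0.83 in this order. The number of genes called in all went from 85 to 272 in that fit of 2 arrays against 2. As the arrays were picked because they stood apart within their groups, its p-values are too small. In the fits with 1 array left out, 1 or 2 of the 10 passed. The log2 fold changes then ran from 0.46 to 1.10 for Ankrd1, 0.78 to 1.44 for Synpo2l, 0.62 to 1.08 for Csrp3, -0.87 to -0.48 for Actn2, 0.090 to 0.38 for Myoz2, 0.036 to 0.20 for Ldb3 and 0.037 to 0.20 for Nebl. Ankrd1 was lowest without normoxia array 2, Ldb3 without normoxia array 1, and Myoz2, Nebl and Synpo2l without hypoxia array 3.

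The wider Z-disc was read from 6 lists of other genes, 80 in all, of which 76 were on the annotated array and 66 lay above the filter. Of these 66, 35 were above 0 and 31 below, while 44.4% of all genes were above 0. The median log2 fold change was 0.02, against -0.04 over all genes, and 0 passed by limma. The groups did not overlap in 11 of the 66 (16.7%), against 18.1% of all genes. An unadjusted p under 0.05 was found in 12 (18.2%), against 12.4% of all genes. In the list of desmin partners and chaperones, 5 of 14 genes were above 0 and the median was -0.09. Synm, the intermediate filament protein synemin that pairs with desmin, read 102, 115 and 80.6 in hypoxia and 50.7, 20.9 and 26.0 in normoxia. Those groups did not overlap, and its log2 fold change of 1.70 missed the threshold (SE 0.33, adjusted p = 0.0603). Synm passed after median centring of the arrays (0.02), with array weights (0.00592), when its probe sets were averaged (0.028) and without normoxia array 1 (0.00596), and its adjusted p ran from 0.00157 to 0.273 over the alternatives. Vim, vimentin, another intermediate filament protein, read 5717, 6563 and 5700.3 in hypoxia and 4449, 4298 and 4312 in normoxia (log2 fold change 0.46, SE 0.09, adjusted p = 0.0603). It passed with the filter at the 75th percentile (0.0343) and with array weights (0.0191), with a range of 0.0191 to 0.352. Both passed with hypoxia array 3 and normoxia array 1 left out (0.00157 and 0.0319).

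The list around titin and stretch sensing had 5 of 10 genes above 0 and a median of -0.03. Lmcd1, a LIM protein, had the smallest p, with a log2 fold change of 0.78 with adjusted p = 0.398, and Csrp2, a relative of Csrp3, had -0.34 on 2156 ± 271 against 2749.5 ± 458 (adjusted p = 0.426). Calsarcins and calcineurin signalling had 6 of 10 above 0 and a median of 0.01. Rcan1, a regulator of calcineurin whose transcript calcineurin is known to induce, had a log2 fold change of 0.34 (576 ± 53.9 against 453 ± 19.8, adjusted p = 0.373), and Ppp3cb, a catalytic subunit of calcineurin, had 0.06 (adjusted p = 0.939).

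In the list of alpha-actinins and PDZ-LIM proteins 7 of 9 were above 0, with a median of 0.13. Actn1, a non-muscle alpha-actinin, read 994, 1399 and 1251 in hypoxia and 869, 793 and 898 in normoxia, without overlap (log2 fold change 0.50, SE 0.14, adjusted p = 0.223). This value of Actn1 fell to 0.15 when its probe sets were averaged. Actn4, the other non-muscle form, had a log2 fold change of 0.13 with adjusted p = 0.783. Pdlim4, named after its values were seen, had -0.56 (adjusted p = 0.349) and passed without normoxia array 1 (0.0488) and with that array and hypoxia array 3 left out (0.0259), with a range of 0.0259 to 0.742. Thin filament anchoring had 7 of 10 above 0 and a median of 0.06, with Lasp1, a relative of nebulette, at 0.31 (adjusted p = 0.467) and the capping protein subunit Capza1 at 0.03 (adjusted p = 0.945). Lasp1 turned to -0.10 when its probe sets were averaged. The list of Xin and intercalated disc genes had 5 of 13 above 0 and a median of -0.05. The alpha-catenins Ctnna3 and Ctnna1 had -1.25 (13.8 ± 5.65 against 31.1 ± 4.33, adjusted p = 0.293) and -0.09 (adjusted p = 0.859). The geometric mean of Ctnna3 in hypoxia, 12.96, lay below the filter, so it was tested only through its normoxia signal, the 1 gene of the 66 of which this holds.

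**Figure D5:**
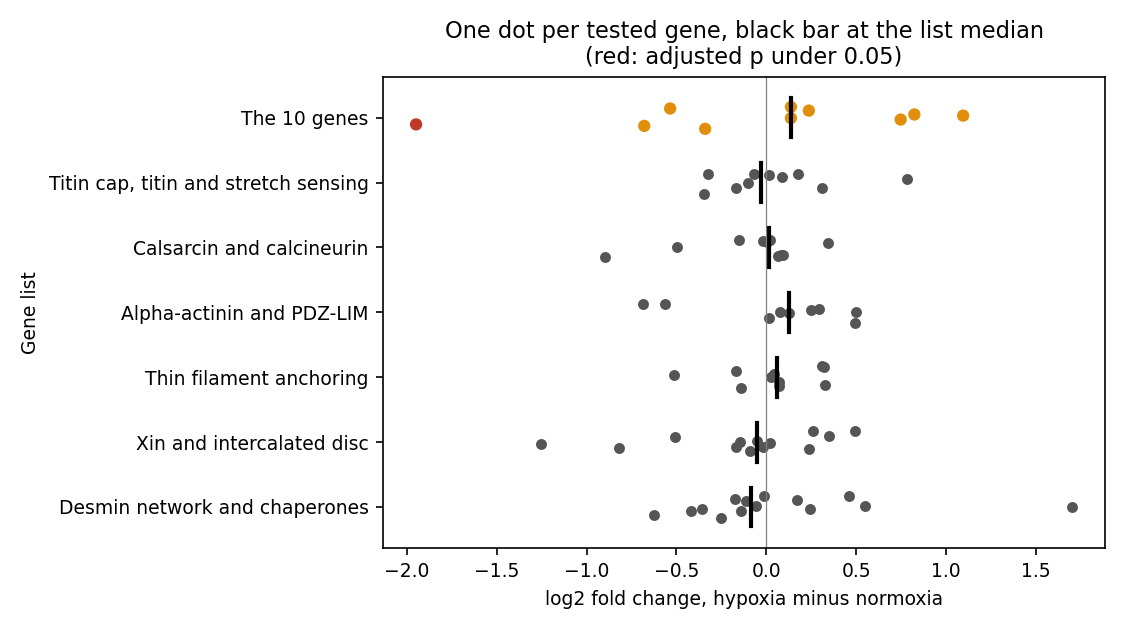
Log2 fold change, hypoxia minus normoxia (x axis), of every tested gene in 6 lists of other Z-disc genes and of the 10 genes described here (rows), 1 dot per gene with a black bar at the median of each list. The red dot is Tcap, the only dot past the threshold, and the list medians run from -0.09 to 0.14.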

How the data were processed

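The data used were the intensities that the authors deposited, 1 value per probe set and array on a linear scale. MAS5 made them, per the submitters' processing notes, and its version and options were not given in the sources used here. After 2% of probe sets had been trimmed at either end, the mean was 99.5 on each of the 6 arrays, and the arrays were not scaled again. Their number limits the precision. No 2 arrays were identical (0 of 15 pairs), and correlations across probe sets on the log2 scale lay between 0.932 and 0.97. The platform annotation gave 1 symbol to 34945 probe sets, several to 932 and none to 9160.

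Signals of 0, of which there were 10, were replaced by 0.1, the lowest positive signal, before the log2 transformation. Probe sets with a mean log2 signal above the median of all were fitted with limma 3.58.1 in R 4.3.3 (lmFit, eBayes with trend, two-sided, no covariates), and p-values were adjusted over all of them. The procedure was tested on simulated data with known changes. Noise there was independent for each value, so deviations that many genes share on an array were not covered. All 10 genes were named with every probe set. From each of the 6 other lists, the genes that passed, the one with the smallest p and the brightest were named. The genes, lists and tests were chosen with earlier results of these data known. The alternatives were 3 other scalings, an offset of 2.9 taken from the 20th percentile of signal, other filters and variance models, weights for arrays, a block for the replicate number, other choices of probe set, and arrays left out.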

Additional observations from a re-analysis of the deposited data

How the results depend on the processing

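Tcap kept its direction and passed under all 20 alternatives, with log2 fold changes between -2.16 and -1.84. Of the other 9 genes, all but Ldb3 kept the sign of their log2 fold change; Ldb3 had -0.0972 when its probe sets were averaged and -0.025 without hypoxia 3 and normoxia 1. Of the 10, 2 genes passed with array weights, 1 or 2 with 1 array left out, and 4 without hypoxia 3 and normoxia 1. Of the other Z-disc genes, 1 passed after median centring, with the filter at the 75th percentile or for the mean of a gene's probe sets, 2 with array weights, 0 to 2 with 1 array left out and 3 without hypoxia 3 and normoxia 1. Median centring moved the median log2 fold change of all genes from -0.04 to 0.07. Probe sets called numbered 137 as reported, 18 without a trend in the variance model, 437 with array weights, 39 to 200.0 with 1 array left out and 439 without hypoxia 3 and normoxia 1. Genes called numbered 85, 9, 277, 24 to 128 and 272 in the same order, and those lower in hypoxia 10, 2, 80, 1 to 27 and 87; the last count was 4 after median centring and 17 for the mean of a gene's probe sets.

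Both groups use replicate numbers 1 to 3. Deviations from the group means of same-numbered arrays correlated at -0.0763, 0.207 and -0.136 across probe sets, so the numbers were not taken to pair the samples; hypoxia 3 correlated best with normoxia 1 (0.319). With the replicate number as a block 105 probe sets were called, 2 genes were lower in hypoxia, and Tcap was the one of the 10 that passed (adjusted p = 0.00389).

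Signs turned elsewhere only in values that did not pass. Capza1 had -0.0228 after quantile normalization, -0.0231 after cyclic loess and -0.00633 to 0.0567 with 1 array left out. Ctnna1 had 0.0224 after median centring and -0.212 to 0.0315 with 1 array left out. Ppp3cb had -0.16 to 0.257 with 1 array left out. Lasp1 had -0.0986 when its probe sets were averaged. Nebl 1451846_at had -0.0342 with array weights, -0.0818 without hypoxia 3 and normoxia 1 and -0.101 to 0.197 with 1 array left out. Synpo2l 1447658_x_at had -0.116 to 0.355 with 1 array left out. The cause of these changes was not tested. The ratios of Tcap to the other genes kept their direction, from -3.47 to -0.94 over all alternatives, and cannot pass an exact test at this size. The block was not run for those ratios, and dim probe sets limit what the arrays can show.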

Other observations

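Of the other Z-disc genes, 10 lay below the filter and entered no count above, and without a filter 0 of them passed by limma (adjusted p between 0.0989 and 0.967). In 3 of these 10 the groups did not overlap, against 10.7% of all 6861 genes below the filter. Ankrd23, an ankyrin repeat protein of the same titin-binding family as Ankrd1, read 34.4, 40.7 and 21.3 in hypoxia and 2.6, 5.8 and 2.3 in normoxia (log2 fold change 3.25, SE 0.66, unadjusted p = 0.000422, adjusted p = 0.0989). Ankrd2, the third member of that family, read 3.2, 2.6 and 7.7 against 11.2, 13.2 and 7.9 (log2 fold change -1.40, adjusted p = 0.705). Cmya5, myospryn, a protein that binds desmin, read 1.4, 12.7 and 1.4 against 14.4, 28.3 and 26.1 (log2 fold change -2.91, adjusted p = 0.385). These signals are in a range where MAS5 values vary widely, and the 3 genes were named after their values were seen.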
